A study of Homo sapiens with 6 samples.

Results

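Transcripts of the mitochondrial genome were followed in HepG2 cells, an established human liver carcinoma line. One set of cells received 10 µM oridonin, a plant diterpenoid, for 48 h and the other 0.1% DMSO, a solvent, for the same time, with 3 RNA sequencing libraries per treatment. The labels do not give the DMSO content of the oridonin cultures. They also do not say that libraries of a treatment came from separate cultures, so the p-values rest on a spread between libraries that could be purely technical. The genes were taken as all rows of the deposited log2 FPKM table (fragment counts divided by gene length and library depth) that lie on the mitochondrial chromosome. There were 16 such rows among 18404, and all 16 were joined by gene identifier to the raw counts deposited for 60504 genes. They comprise 13 protein-coding genes, 2 rRNA genes and 1 tRNA gene, and all 16 passed the filter on low counts.

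The human mitochondrial genome is a small circle that encodes core subunits of the respiratory chain and of ATP synthase, together with the rRNAs and tRNAs needed to translate them. Both strands are transcribed as long precursors from promoters in one control region, and the precursors are cut mostly at the tRNAs that lie between the other genes. The polymerase, the processing enzymes, the ribosomal proteins and most respiratory chain subunits come from nuclear genes. HepG2 cells, like hepatocytes, hold many mitochondria.

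Total counts per library ran from 27674586 to 30739574 with oridonin and from 22250202 to 29352396 with DMSO. All 12 hepatocyte markers examined had counts in every library, with summed levels of 18822 to 21329 CPM (counts scaled to library size) of total counts with oridonin and 28946 to 32747 CPM with DMSO. Of 15116 genes tested across the whole table with edgeR's quasi-likelihood test, 41.9% passed an adjusted p of 0.05 (Benjamini-Hochberg) and are referred to as called, 20.6% higher and 21.3% lower with oridonin. Upward calls made up 49.2% of all calls with trimmed mean of M values (TMM) scaling and 65.5% with total counts only.

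Of the 16 mitochondrial genes, 7 encode complex I subunits, 1 a complex III subunit, 3 complex IV subunits and 2 ATP synthase subunits, and only MT-ND6 and MT-TP lie on the minus strand. Their deposited coordinates were those of GENCODE release 29 on GRCh38 for all 16. Of the 13 protein-coding genes, 6 end in the annotation with 1 or 2 bases of an incomplete codon, which polyadenylation of the transcript is known to complete to a stop codon. The sequences of 3 genes are given from the GENCODE transcripts. MT-TP and MT-ND3 were the genes called between the treatments, and MT-ATP8 had by far the lowest level. In MT-TP, the tRNA for proline, capitals mark the anticodon, found as the bases TGG in the middle of a 7-base loop closed by 5 complementary base pairs. Of MT-ND3, the last 60 bases are given (chrM:10345-10404), and the capital marks the single base after the last full codon. In MT-ATP8, capitals mark the 46 bases that it shares with the start of MT-ATP6, read there in another frame.
MT-TP: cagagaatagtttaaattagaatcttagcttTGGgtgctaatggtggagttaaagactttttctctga
MT-ND3 3′ end: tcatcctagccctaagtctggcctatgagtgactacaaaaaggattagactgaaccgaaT
MT-ATP8: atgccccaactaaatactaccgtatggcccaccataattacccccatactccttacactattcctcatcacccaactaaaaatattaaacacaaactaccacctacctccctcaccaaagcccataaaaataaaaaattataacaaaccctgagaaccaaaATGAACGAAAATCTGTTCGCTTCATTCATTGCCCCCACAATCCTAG

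Per gene length, the highest levels belonged to MT-CO1, the catalytic subunit of complex IV, to MT-RNR2, the large mitochondrial rRNA, and to MT-CO2, another complex IV subunit. MT-CO1 averaged 3703 ± 846 FPKM with oridonin and 3353 ± 805 FPKM with DMSO (SD, n = 3 each). MT-RNR2 averaged 3478 ± 324 FPKM with oridonin and 3742 ± 686 FPKM with DMSO, and MT-CO2 3107 ± 921 FPKM with oridonin and 2797 ± 999 FPKM with DMSO (SD, n = 3 each). The ranges of these 3 genes overlapped in both treatments. Compared within each library, MT-CO1 was above MT-CO2 in all 6 libraries, and with DMSO MT-RNR2 was above both in every library. With oridonin the place of MT-RNR2 against them differed between libraries. With oridonin, the range of MT-CO2 (2077 to 3848 FPKM) did not overlap that of MT-ND3 (1710 to 1898 FPKM), the next in the order. With DMSO, MT-ND4 came next, and its range (1017 to 1978 FPKM) overlapped that of MT-CO2 (1675 to 3591 FPKM). The next 5, given in their order with oridonin, were MT-ND3, MT-CO3, MT-ATP6, MT-ND4 and MT-RNR1, the small rRNA. Their means lay between 1348 and 1814 FPKM with oridonin and between 1364 and 1565 FPKM with DMSO. Lower levels followed for MT-ND1, MT-ND2, MT-ND6, MT-TP, MT-ND5, MT-ND4L and MT-CYB, the cytochrome of complex III, whose means ran from 382 to 775 FPKM with oridonin and from 404 to 751 FPKM with DMSO.

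**Figure D1:**
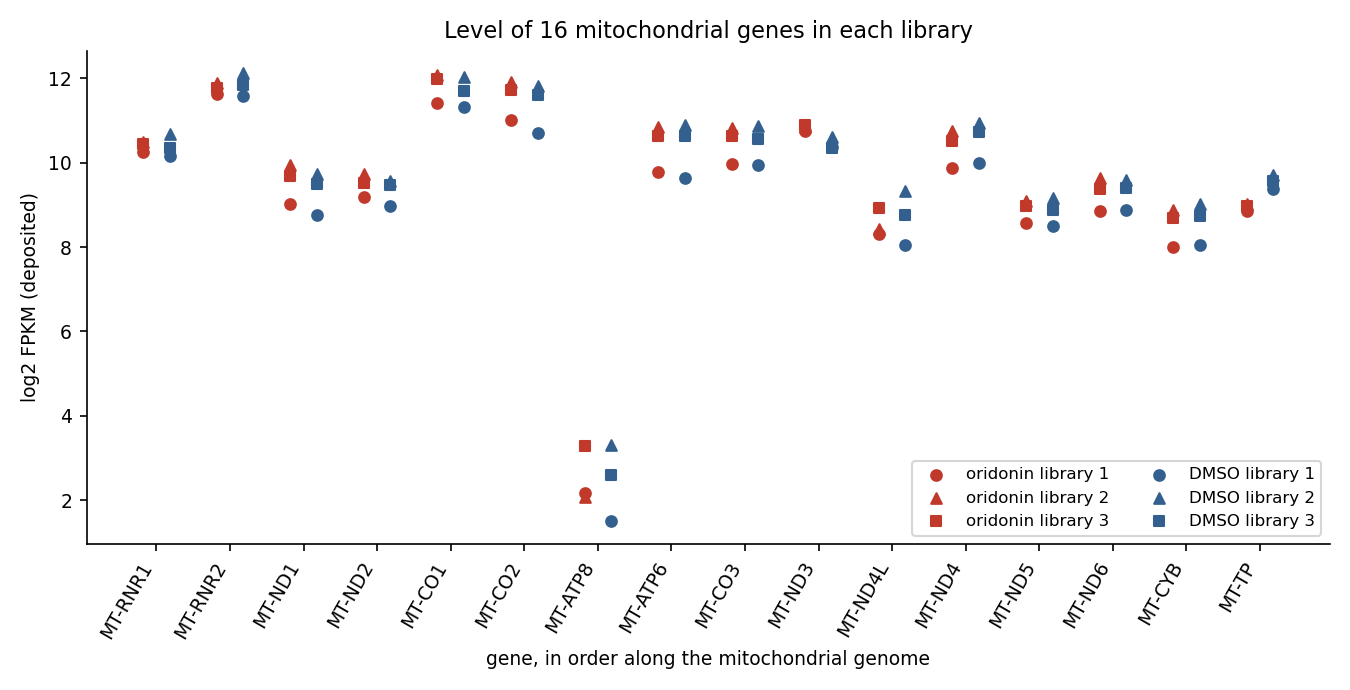
Deposited log2 FPKM (vertical axis) of the 16 mitochondrial genes in order along the genome, with 1 point per library, oridonin left of DMSO for each gene. Library 1 of each treatment (circles) is the lowest point for most genes, MT-ATP8 lies far below the others, and the treatments separate only at MT-ND3 and MT-TP.

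MT-ATP8 stood far below its neighbours. It had 4.53, 4.26 and 9.71 FPKM in oridonin libraries 1 to 3, against 2.83, 9.92 and 6.02 FPKM in DMSO libraries 1 to 3, from 27 to 56 counts with oridonin and 13 to 59 with DMSO. MT-ATP6, which is carried on the same mature transcript, was between 164 and 431 times higher in FPKM with oridonin and between 193 and 280 times higher with DMSO. MT-ATP8 shares 22.2% of its 207 bases with MT-ATP6, and how reads on shared bases were assigned is not given in the sources used here, so its level is uncertain. MT-ND4L and MT-ND4, the other overlapping pair carried on one transcript, share 7 bases. There MT-ND4 was 2.97 to 5.03 times higher in FPKM with oridonin and 3.10 to 3.92 times higher with DMSO.

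Among the tRNAs, MT-TP was the exception. GENCODE lists 37 genes on the mitochondrial chromosome, and all 21 that are absent from the log2 FPKM table are tRNA genes. Of these, 20 had 0 counts in all 6 libraries. There the limit set by 3 counts is at most 0.108 CPM of total counts with oridonin and 0.135 CPM of total counts with DMSO. MT-TF, the tRNA for phenylalanine, had 2 counts in DMSO library 3 and none elsewhere. Limits of this kind cover counting error only. MT-TP had between 952 and 1088 counts with oridonin and between 1011 and 1623 with DMSO.

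With oridonin, MT-ND3 rose, MT-TP fell and the other 14 of the 16 mitochondrial genes were not called in a fit without a replicate term. Calls were thus 1 higher and 1 lower of 16, where 20.6% and 21.3% of all genes tested were called in those directions. The median log2 fold change was -0.02 over the 16 genes and 0.01 over all genes tested. The 14 uncalled genes had log2 fold changes between -0.24 and 0.20, with standard errors (SE) between 0.14 and 0.46, and the smallest adjusted p among them was 0.551 (edgeR). Their libraries overlapped between treatments in every case. In a fit with replicate number as a block, 9 of the 16 genes were called, where 50.9% of all genes were. The labels do not say that replicate numbers pair cultures, so which fit applies cannot be told.

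**Figure D2:**
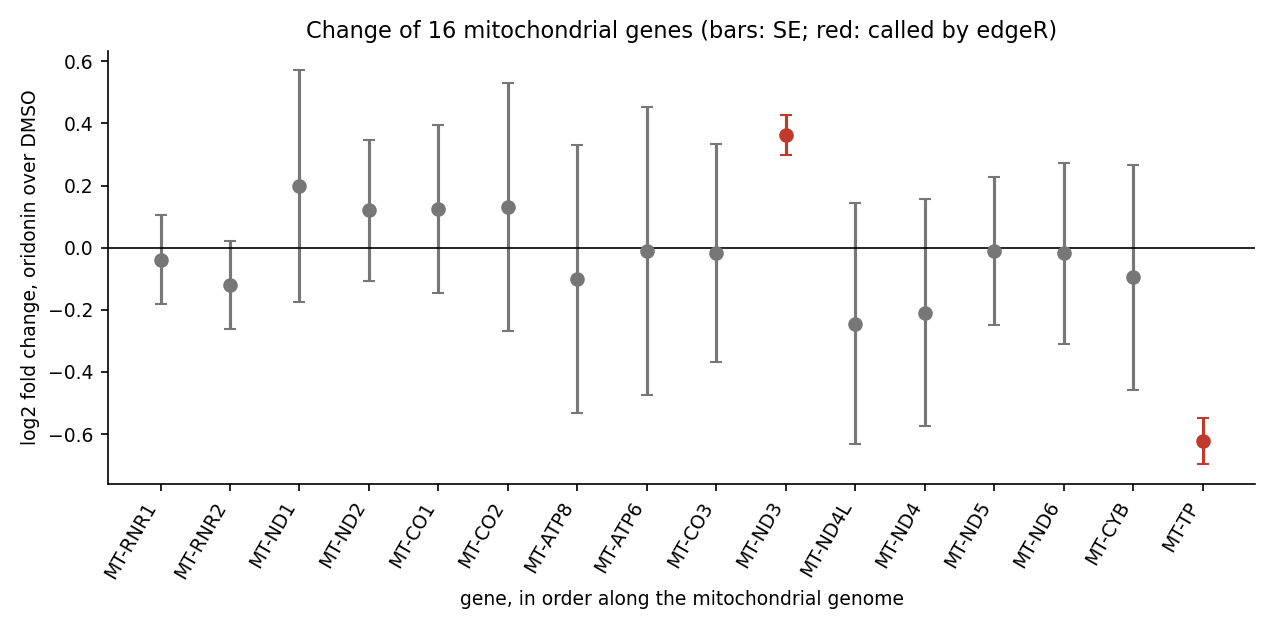
Log2 fold change of oridonin over DMSO (vertical axis) for the 16 mitochondrial genes in order along the genome, with SE bars from edgeR. MT-ND3 at 0.36 and MT-TP at -0.62 are drawn in red as called, and the bars of the other genes are mostly several times longer.

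MT-ND3 (ENSG00000198840, GRCh38 chromosome M, 10059 to 10404, plus strand) encodes a membrane subunit of complex I, which passes electrons from NADH to ubiquinone. It stood at 592, 629 and 651 CPM in oridonin libraries 1 to 3, against 467, 541 and 449 CPM in DMSO libraries 1 to 3. All 3 oridonin libraries were above all 3 DMSO libraries. The means were 624 ± 29.7 CPM with oridonin and 485 ± 48.8 CPM with DMSO (SD, n = 3 each), a log2 fold change of 0.36 ± 0.06 (SE, edgeR adjusted p = 0.000349), or 1.29-fold. Leaving out any 1 library gave log2 fold changes of 0.31 to 0.45, each called by edgeR.

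MT-TP (ENSG00000210196, GRCh38 chromosome M, 15956 to 16023, minus strand) stood at 31.5, 35.3 and 33.7 CPM in oridonin libraries 1 to 3, against 46.1, 57.0 and 51.4 CPM in DMSO libraries 1 to 3. All oridonin libraries were below all DMSO libraries. The means were 33.5 ± 1.91 CPM with oridonin and 51.5 ± 5.47 CPM with DMSO (SD, n = 3 each), a log2 fold change of -0.62 ± 0.07 (SE, edgeR adjusted p = 4.78e-06). Without any 1 library the log2 fold change lay between -0.70 and -0.54 and was called each time by edgeR. The strand setting of the counts is not given and both strands of this genome are transcribed, so reads of MT-TP and MT-ND6 cannot be told apart from those of transcripts of the opposite strand. The groups did not overlap for MT-ND3 and MT-TP alone among the 16 genes, compared with 51.6% of all genes tested.

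RNAs that usually lack a poly(A) tail were also examined, since the way RNA was selected for the libraries is not given. Of 12 such genes, 10 were found in the count table and 4 were tested, all of them histone genes. Of these, 3 were called higher with oridonin, the replication-dependent histone genes H1-2, H2AC6 and H2BC4. H1-4, at 0.54 CPM with oridonin and 0.41 CPM with DMSO, was not called. Over all genes tested, 20.6% were called higher and 21.3% lower. Their list summed to 31.3, 28.9 and 27.2 CPM of total counts with oridonin, against 10.2, 11.5 and 9.11 CPM with DMSO, and RMRP, RPPH1, RN7SL1 and SCARNA2 had no counts in any library. The list moved with the treatment in the direction opposite to MT-TP, and its part in the result was not tested. Of 3 tested RNAs kept in the nucleus, NEAT1 and MALAT1 were called higher, at log2 fold changes of 0.84 and 0.64. KCNQ1OT1 was not called. The nuclear-retained list summed to 388, 316 and 345 CPM of total counts in oridonin libraries 1 to 3, against 225, 209 and 165 CPM in DMSO libraries 1 to 3. Library 1 was thus the highest of each treatment, and the part of this list was not tested either.

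In complex I, the genes other than MT-ND3 differed by less than their spread. MT-ND4, a proton-pumping membrane subunit, had 1290, 2367 and 1985 CPM with oridonin, against 1427, 2755 and 2339 CPM with DMSO (log2 fold change -0.21 ± 0.37, SE). MT-ND1, which helps to form the ubiquinone site, had 500.1, 934 and 778 CPM with oridonin, against 419, 817 and 690.5 CPM with DMSO (0.20 ± 0.37, SE). In both genes library 1 of either treatment was the lowest. MT-ND2 and MT-ND5, the other pumping subunits, had log2 fold changes of 0.12 ± 0.23 and -0.01 ± 0.24, MT-ND4L -0.24 ± 0.39 and MT-ND6 -0.02 ± 0.29 (SE).

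The catalytic core of complex IV, encoded by MT-CO1 and MT-CO2, and the third core subunit, MT-CO3, were not called. MT-CO1 had 4235, 6638 and 6153 CPM with oridonin, against 4035, 6497 and 5103 CPM with DMSO (log2 fold change 0.12 ± 0.27, SE). MT-CO2 and MT-CO3 had log2 fold changes of 0.13 ± 0.40 and -0.02 ± 0.35, and MT-CYB, the only complex III subunit encoded here, -0.10 ± 0.36 (SE). MT-ATP6, a subunit of the proton channel of ATP synthase, had 602, 1243 and 1076 CPM with oridonin, against 548, 1312 and 1082 CPM with DMSO (-0.01 ± 0.46, SE), and MT-ATP8 had -0.10 ± 0.43 (SE). The range within a treatment exceeded the difference between treatments in each of these genes.

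The rRNAs were steadier than most mRNAs. MT-RNR2 had 4928, 5895 and 5391 CPM with oridonin, against 4894, 6971 and 5762 CPM with DMSO (log2 fold change -0.12 ± 0.14, SE), and MT-RNR1 had a log2 fold change of -0.04 ± 0.14 (SE). Without DMSO library 1, MT-RNR2 was called lower with oridonin at -0.24. The counts of MT-RNR2 over those of MT-RNR1 were 4.23, 4.36 and 4.10 with oridonin, against 4.43, 4.39 and 4.64 with DMSO. All oridonin ratios were below all DMSO ratios. The exact two-sided permutation test gave p = 0.1, the smallest that 3 against 3 libraries allow. Other ratios overlapped between treatments. The exact two-sided permutation test gave p = 0.3 for MT-ND3 over MT-ND4 (FPKM) and p = 0.3 for MT-TP over MT-CYB (counts). The exact two-sided permutation test gave p = 0.5 for rRNAs over mRNAs (counts) and p = 0.9 for MT-ATP6 over MT-ATP8 (FPKM). MT-ND4 over MT-ND4L (FPKM) also overlapped. How often ratios of other genes separate was not tested.

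Taken as a whole, mitochondrial genes took 1.81, 2.67 and 2.40% of all counts in oridonin libraries 1 to 3, against 1.65, 2.67 and 2.17% in DMSO libraries 1 to 3. The means were 2.29 ± 0.438% with oridonin and 2.16 ± 0.511% with DMSO (SD, n = 3 each). The difference of 0.128 percentage points was smaller than the spread within either treatment (exact two-sided permutation test, p = 0.8). In bulk RNA, fewer cells of a kind and less RNA per cell cannot be told apart. The difference was -0.0604 percentage points without oridonin library 2 and -0.129 without DMSO library 1. The 3 complex IV genes alone took 0.915 ± 0.221% of counts with oridonin and 0.805 ± 0.212% with DMSO, and the 2 rRNAs 0.686 ± 0.0557% with oridonin and 0.698 ± 0.122% with DMSO (SD, n = 3 each).

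**Figure D3:**
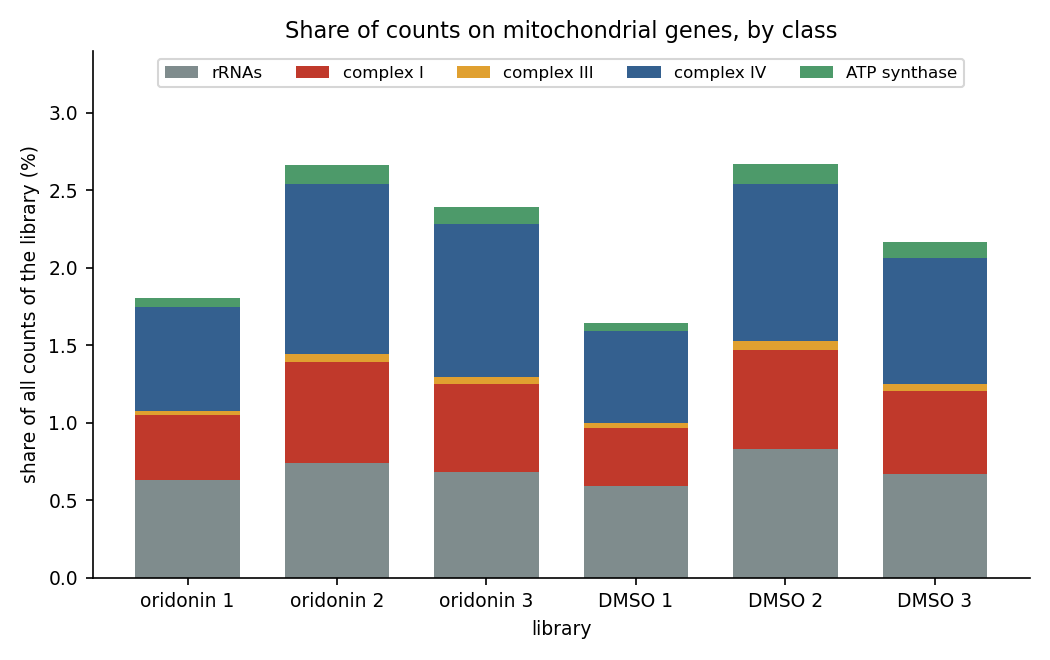
Share of all counts (percent, vertical axis) taken by mitochondrial genes in each library, stacked by class, without MT-TP, which took at most 0.00553%. Library 1 has the shortest bar in each treatment, and the total runs from 1.81 to 2.67% with oridonin and from 1.65 to 2.67% with DMSO.

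The larger differences lay between libraries of the same treatment. Of the 16 genes, 15 were lowest in library 1 among the oridonin libraries and 15 were lowest in library 1 among the DMSO libraries. Over all genes tested, library 1 was the lowest for 30.3% with oridonin and for 33.3% with DMSO. The highest library was number 2 for 13 of 16 genes with oridonin and for 16 of 16 with DMSO. The median deviation of the 16 genes from the treatment mean was -0.35 on the log2 scale in oridonin library 1 and -0.45 in DMSO library 1, while the median over all genes tested was within 0.005 of 0 in every library. Total counts were 30739574, 30052040 and 27674586 in oridonin libraries 1 to 3, where library 1 was the deepest, and 22250202, 29352396 and 28536857 in DMSO libraries 1 to 3, where depth had the same order as the median deviation of the mitochondrial genes. The part of depth in the spread was not tested.

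The spread within treatments differed among the genes. Its pooled SD on the log2 CPM scale had a median of 0.41 over the 16 genes, against 0.10 over all genes tested and 0.06 over the 2275 genes that averaged 100 CPM or more. It was largest for MT-ATP8 at 0.74, where counts were few, followed by MT-ATP6 at 0.61 and MT-CO2 at 0.52. MT-ND4L was at 0.50, MT-ND1, MT-ND4, MT-CYB and MT-CO3 lay between 0.45 and 0.48, MT-ND6 was at 0.37, and MT-CO1, MT-ND5 and MT-ND2 between 0.29 and 0.35. The rRNAs were at 0.20 for MT-RNR2 and 0.21 for MT-RNR1. MT-TP at 0.12 and MT-ND3 at 0.11, the genes called between treatments, had the smallest spread.

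**Figure D4:**
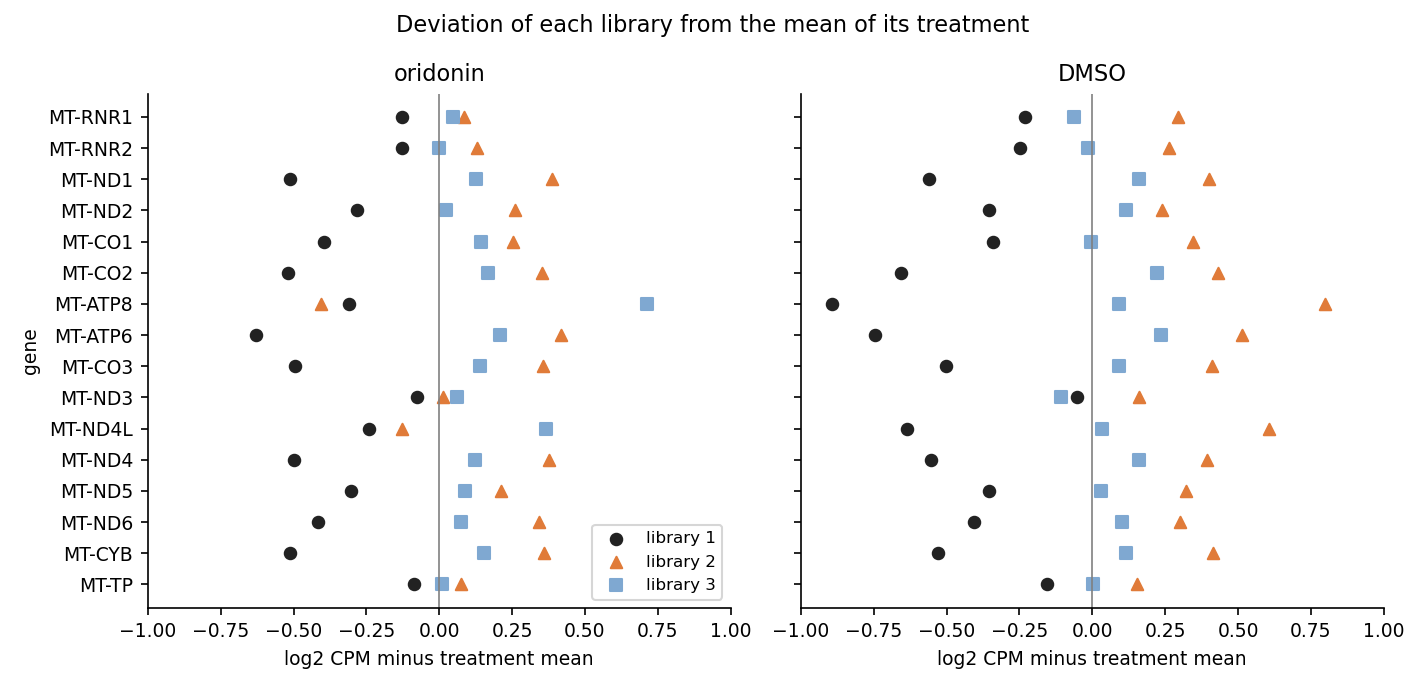
Deviation of log2 CPM in each library from the mean of its treatment (horizontal axis) for the 16 mitochondrial genes, oridonin in the left panel and DMSO in the right. Library 1 lies left of the mean for all genes in both panels, by the most in MT-ATP6 with oridonin and in MT-ATP8 with DMSO, and MT-ND3 and MT-TP scatter least.

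Some, but not all, marker transcripts of immune cells and of other cell types were also lowest in library 1. The 8 immunoglobulin constant region genes, picked out of the list of B cell and plasma cell markers after the values were seen, summed to 803, 2498 and 2168 counts in oridonin libraries 1 to 3, against 1, 296 and 497 counts in DMSO libraries 1 to 3. Library 1 was the lowest of each treatment, while the highest was library 2 with oridonin and library 3 with DMSO. The whole list of 14 markers summed to 46.0 to 105 CPM of total counts with oridonin and 4.58 to 22.4 CPM with DMSO, and 10 were tested, of which 3 were called higher and 1 lower, where 20.6% and 21.3% of all genes were called in those directions. CD79A, a B cell receptor component and the list's strongest call (log2 fold change 3.73, edgeR adjusted p = 1.38e-11), did not share this order. It was lowest in library 2 of both treatments, with 16.9, 15.5 and 20.7 CPM in oridonin libraries 1 to 3, against 1.37, 1.16 and 1.46 CPM in DMSO libraries 1 to 3. MS4A1, the B cell antigen CD20, was at 0 in every library. Among markers of other cell types, 6 of 8 tested gut genes were higher and 1 lower, 1 of 2 erythroid and myeloid genes was lower, 2 of 5 fibroblast and endothelial genes were higher and 1 lower, and 2 of 3 muscle genes were lower, against the same shares over all genes. Of these, PIGR, LGALS4, COL1A1, COL1A2, CDH5 and TNNI3 were lowest in library 1 of both treatments. None of them exceeded the 5.60 CPM of PIGR in oridonin library 3. Of the hepatocyte markers, APOA2 and TTR had this order too. The other tested genes of these lists did not, where 11.9% of all genes tested did. Without library 1 of both treatments, MT-ND3 and MT-TP remained the genes called, at log2 fold changes of 0.37 and -0.66, where 31.2% of all genes were called, and the difference in summed mitochondrial share was 0.111 percentage points. The part of these marker transcripts in the spread of the mitochondrial genes was not tested.

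Composition within the mitochondrial mRNA was compared with each gene as a share of the summed counts of the 13 protein-coding genes, which sets aside the overall level of a library. MT-ND4 made up 11.4, 12.6 and 11.8% with oridonin, against 13.4, 14.6 and 15.0% with DMSO. MT-CYB made up 2.59, 2.88 and 2.79% with oridonin, against 2.90, 3.14 and 3.11% with DMSO. For these genes all oridonin libraries were below all DMSO libraries. MT-TP, set against the same sum, was 0.278, 0.188 and 0.201% with oridonin and 0.431, 0.301 and 0.330% with DMSO, again without overlap. These 3 of the 16 genes had non-overlapping groups on this scale, which 8.12% of all genes tested had, and each gave p = 0.1 in the exact two-sided permutation test. MT-ND4 and MT-CYB are part of this sum and varied with it between libraries, so the 8.12% is not a like background for them. In CPM, 51.6% of all genes tested did not overlap.

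MT-ND3 on this scale was 5.21, 3.36 and 3.88% with oridonin, against 4.37, 2.86 and 2.88% with DMSO. Library 1 was the highest of each treatment, and the treatments overlapped. The share of MT-CO1 averaged 36.5 ± 0.970% with oridonin and 35.0 ± 2.56% with DMSO (SD, n = 3 each). The rRNAs were 0.537, 0.386 and 0.400 of the mRNA counts with oridonin, against 0.562, 0.452 and 0.450 with DMSO, with library 1 again apart from the others in both treatments.

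Copies of mitochondrial genes in the nuclear genome can take reads from them where they are near-identical. Of 404 genes in the count table whose symbols mark them as such copies, 342 had no counts in any library and 3 averaged at least 100 counts, and identity was measured for these 3 alone. MTATP6P1 on chromosome 1, which is 98.5% identical to MT-ATP6 over 681 bases, had 934, 1415 and 1464 counts with oridonin, against 567, 2002 and 1596 with DMSO. MTND2P28 and MTCO1P12, also on chromosome 1, are 98.4% identical to MT-ND2 and 98.6% identical to MT-CO1. All copies together held between 0.259 and 0.336% of the counts of the mitochondrial genes with oridonin and between 0.275 and 0.366% with DMSO. MTATP8P1 and MTATP8P2, copies of MT-ATP8, had no counts. How reads that match both a copy and its parent were handled is not given, so these shares do not bound the reads lost to copies.

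Nuclear genes for mitochondrial DNA expression were counted for comparison. In 4 lists of 87 genes tested, for transcription, DNA maintenance, RNA processing and translation, 20 were higher and 10 lower with oridonin and 57 were not called, against the 20.6% and 21.3% called higher and lower over all genes. POLRMT, the mitochondrial RNA polymerase, averaged 221 ± 23.3 CPM with oridonin and 177 ± 17.9 CPM with DMSO (SD, n = 3 each, log2 fold change 0.32, edgeR adjusted p = 0.00945). TFB2M, its initiation factor, rose at 0.32, and TFB1M, a methyltransferase of the small rRNA, fell at -0.29. TFAM, which packages mitochondrial DNA and activates its promoters, was at -0.09 ± 0.05 (SE) and was not called.

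Among 39 genes of mitochondrial RNA processing and decay, 10 were higher and 3 lower (median log2 fold change 0.08). Over all genes tested, 20.6% were called higher and 21.3% lower. HSD17B10, a subunit of the RNase P that cuts the 5′ ends of mitochondrial tRNAs, rose at 0.30, and ELAC2, the RNase Z that cuts their 3′ ends, rose at 0.26. REXO2, an oligoribonuclease, rose at 0.38. LRPPRC, which stabilises mitochondrial mRNAs, fell to 433 ± 21.2 CPM with oridonin, against 532 ± 9.51 CPM with DMSO (SD, n = 3 each, log2 fold change -0.30, edgeR adjusted p = 9.75e-05). In the list of 21 DNA maintenance genes, 5 were higher and 3 lower (median 0.03), against the same shares over all genes. RRM2B, a ribonucleotide reductase subunit, rose at 0.69, the helicase TWNK and the polymerase POLG at 0.30 and 0.31, and FEN1, a flap endonuclease shared with the nucleus, fell at -0.48.

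The counts of the next 3 lists stand against 20.6% of all genes called higher and 21.3% called lower. Of 16 translation and insertion factors, 3 were higher and 2 lower (median 0.06), with LETM1, a cation exchanger of the inner membrane, at 0.23, the initiation factor MTIF2 at 0.18, MTFMT, which formylates the initiator tRNA, at 0.22 and the recycling factor MRRF at -0.28. MTIF2 was not called without oridonin library 2 (0.16) or DMSO library 3 (0.13), MTFMT was not called by DESeq2 (0.21), without oridonin library 1 (0.19) or without DMSO library 2 (0.22), and neither they nor LETM1 (0.20) were called without library 1 of both treatments. Among 15 proteases and chaperones, 3 were higher and 5 lower (median -0.11), with HSPA9 and HSPD1, the main chaperones of the matrix, at -0.28 and -0.29, TRAP1 at -0.19 and the protease SPG7 at 0.21. TRAP1 was not called with total counts only (-0.11). The 13 biogenesis regulators held 2 calls in each direction (median -0.07). PPARGC1A, a coactivator of mitochondrial biogenesis, fell to 7.44 ± 0.958 CPM with oridonin, against 19.9 ± 0.995 CPM with DMSO (SD, n = 3 each, log2 fold change -1.42, edgeR adjusted p = 4.7e-09). PPARGC1B rose at 0.42 and ESRRA at 0.26, and the value of ESRRA is uncertain because it overlaps TRMT112 on the opposite strand. By limma on the deposited log2 FPKM neither was called (PPARGC1B 0.43, adjusted p = 0.0828, and ESRRA 0.28, adjusted p = 0.0566). ESRRA was also not called without oridonin library 3 (0.20), DMSO library 1 (0.24), DMSO library 2 (0.19) or library 1 of both treatments (0.24).

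The nuclear partners of the mitochondrial subunits were counted by complex, where 20.6% of all genes were called higher and 21.3% lower. In complex I, 17 of 36 nuclear subunit genes tested were higher and 0 lower by edgeR (median 0.15), with NDUFS5 at 0.37, NDUFA8 at 0.32 and NDUFB3 at 0.53. At an unadjusted p under 0.05, 2 were lower. DESeq2 and limma called 0 lower, while edgeR called 1 lower with DESeq2's size factors and 1 without oridonin library 2. Without library 1 of both treatments, 7 complex I genes were called higher. In complex III, 2 of 9 were higher and 2 lower (median -0.03), with UQCR10 and UQCRH at 0.17 and 0.15 and UQCRC2 at -0.18. UQCR10 was not called by DESeq2 (0.16) or without DMSO library 2 (0.16), UQCRC2 was not called with total counts only (-0.10), and neither UQCR10 (0.17 and 0.15) nor UQCRH (0.12 and 0.13) was called by edgeR without oridonin library 1 or without DMSO library 1. Without library 1 of both treatments, UQCR10 (0.15), UQCRH (0.10) and UQCRC2 (-0.17) were not called. In complex IV, 4 of 11 were higher and 0 lower by edgeR (median 0.09; 0 lower at an unadjusted p under 0.05, and 0 called lower by DESeq2 or limma), with COX7A2, COX7B and NDUFA4 at 0.30, 0.29 and 0.20. NDUFA4 was not called without library 1 of both treatments (0.20). In ATP synthase, 6 of 17 were higher and 3 lower (median 0.06), with ATP5MJ, ATP5MK and ATP5F1E at 0.31, 0.27 and 0.27 and ATP5MC2 at -0.19, which was not called with total counts only (-0.11) or without library 1 of both treatments (-0.19). Complex II, which has only nuclear subunits, had 0 calls among 4 genes by edgeR, DESeq2 and limma and 1 gene at an unadjusted p under 0.05 by edgeR, with SDHA at -0.11 ± 0.05 and SDHC at 0.02 ± 0.05 (SE).

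**Figure D5:**
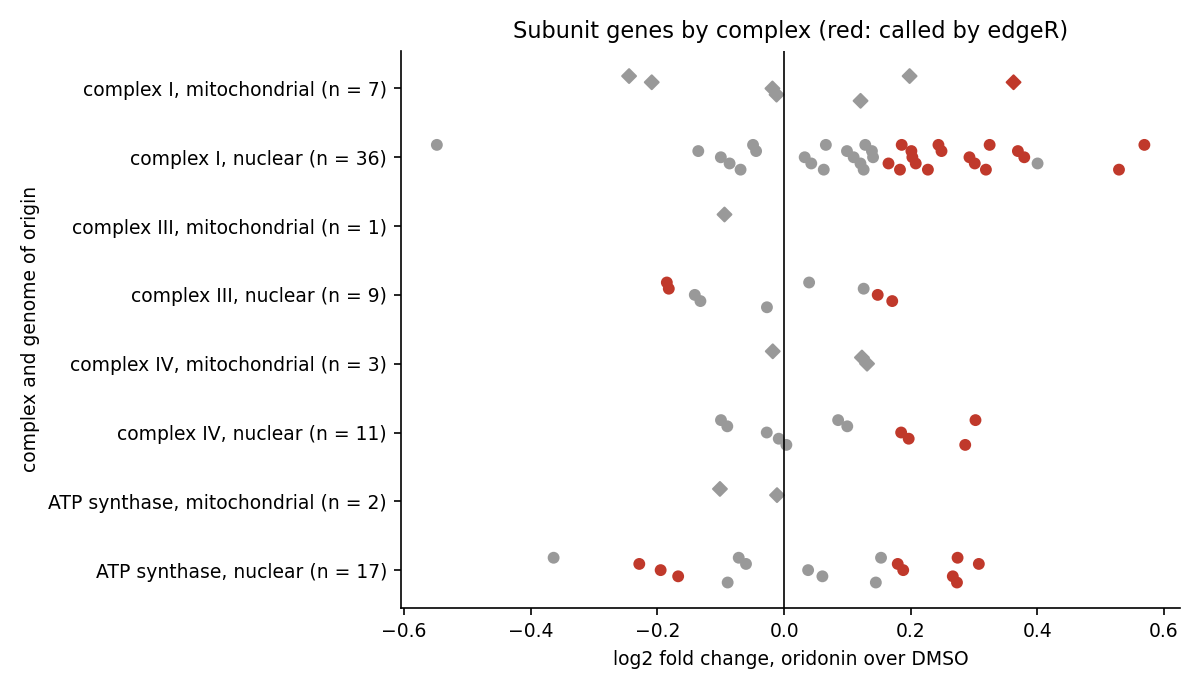
Log2 fold change of oridonin over DMSO (horizontal axis) for subunit genes of each complex, those of the mitochondrial genome (diamonds) above those of the nuclear genome (circles), with genes called by edgeR in red. Of 13 mitochondrial subunit genes 1 is red, MT-ND3, and of 73 nuclear ones 34 are. The uncalled mitochondrial genes had SE of 0.23 to 0.46, too wide to call a change near the nuclear median of 0.13.

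Across the 4 complexes, the 13 mitochondrial genes had 1 call higher and 0 lower by edgeR, also by DESeq2 and limma, with 0 lower at an unadjusted p under 0.05. Their median log2 fold change was -0.01, and the 73 nuclear ones had 29 higher and 5 lower, at a median of 0.13, against 20.6% and 21.3% of all genes called in those directions. The 12 uncalled mitochondrial genes had SE between 0.23 for MT-ND2 and 0.46 for MT-ATP6. A change near the nuclear median could thus not have been called for them, and the counts of calls are not alike. Whether the mitochondrial and nuclear subunits differed in their response was not tested. The median deviation of the nuclear subunits from the treatment mean was -0.01 in oridonin library 1 and -0.04 in DMSO library 1, while that of the 13 mitochondrial mRNAs was -0.42 in oridonin library 1 and -0.53 in DMSO library 1. Library 1 was the lowest of both treatments for 11 of the 13 mitochondrial mRNAs, for 15 of the 73 nuclear subunits (20.5%) and for 11.9% of all genes tested. Taken singly, library 1 was the lowest for 25 of the 73 nuclear subunits with oridonin and for 43 with DMSO. Over all genes tested, the shares were 30.3% with oridonin and 33.3% with DMSO.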

How the data were processed

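Raw counts per gene were used as deposited by the authors, whole numbers without scaling. The log2 FPKM values were also used as deposited by the authors, and their rows are the genes with at least 1 count in all 6 libraries. The submitters' processing notes name hg38 as build and DESeq2 1.10.1 as a tool. Not given in the sources used here are the aligner, counting program, strand setting and RNA selection.

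Counts were filtered with filterByExpr, scaled by TMM and tested with edgeR 4.0.16 (robust quasi-likelihood fit, R 4.3.3) over the whole table, with Benjamini-Hochberg adjustment and a threshold of 0.05. The fit was tested on simulated data, with the spread between libraries capped and drawn for each gene on its own. That test therefore does not cover the wide spread that the mitochondrial genes share between libraries. Single values per library were compared by exact two-sided permutation of the 6 libraries, 20 splits. DESeq2 1.42.0, limma 3.58.1, other scalings, no filter, left-out libraries and a replicate block were alternatives. CPM are TMM-scaled unless said to be of total counts. No molecular identifiers are named, so limits based on 3 counts cover counting error only.

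The members and lists were chosen with earlier results of these data known. Every mitochondrial gene is named. Of each nuclear list, up to 3 called genes, those of lowest p, are named from whichever direction held more calls, plus 1 from the opposite direction, or, without calls, up to 2 with the highest mean. TFAM is named in addition, chosen after its values were seen.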

Additional observations from a re-analysis of the deposited data

How the results depend on the processing

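MT-ND3 and MT-TP kept their direction under every alternative run, and both were called in each except with library size set to mitochondrial mRNA, where log2 fold changes were 0.30 and -0.67 (edgeR adjusted p = 0.99992 and 0.805). That setting called 0 mitochondrial genes higher and 0 lower, with 0 at an unadjusted p under 0.05 and 1.46% of all genes called, and edgeR alone was run there. The replicate block called 5 higher (MT-ND1, MT-ND2, MT-CO1, MT-CO2 and MT-ND3) and 4 lower (MT-RNR2, MT-ND4, MT-CYB and MT-TP), where 50.9% of all genes were called. It also called 3 nuclear complex I subunits lower. The block with mitochondrial mRNA as library size, chosen after seeing the data, called 2 higher and 4 lower, where 45.6% of all genes were called. The labels share replicate numbers but do not say that they pair cultures. Deviations of same-numbered libraries correlated across genes at 0.19, 0.07 and 0.17, and each library correlated best with its own number, a hint from the data and not from the design. As a term in the edgeR fit, replicate number passed an adjusted p of 0.05 for 7.03% of all genes. Among the mitochondrial genes it passed for all but MT-RNR1, MT-ATP8, MT-ND3 and MT-ND4L. With libraries paired by number, the summed share differed by 0.162, -0.003 and 0.225 percentage points. An exact two-sided test over sign flips of these 3 pairs gave p = 0.5, and with 3 pairs that test cannot reach 0.05. The causes of these changes were not tested.

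Leaving out 1 library gave 1 mitochondrial gene higher and 1 to 2 lower, 41 to 53 nuclear list genes higher and 17 to 28 lower, and a summed share difference of -0.129 to 0.382 percentage points. Over all genes, leaving out 1 library gave 2534 to 3258 higher and 2748 to 3289 lower. It gave log2 fold changes of -0.15 to 0.12 for MT-RNR1, -0.24 to 0.018 for MT-RNR2, -0.037 to 0.41 for MT-ND1, -0.041 to 0.25 for MT-ND2, -0.037 to 0.31 for MT-CO1, -0.13 to 0.35 for MT-CO2, -0.56 to 0.41 for MT-ATP8, -0.30 to 0.25 for MT-ATP6 and -0.24 to 0.20 for MT-CO3. For MT-ND4L it gave -0.50 to 0.10, for MT-ND4 -0.44 to 0.0017, for MT-ND5 -0.17 to 0.16, for MT-ND6 -0.20 to 0.16 and for MT-CYB -0.32 to 0.12. Nuclear list genes called lower numbered 22, but 9 with total counts and 36 with the block. Over all 15116 genes tested, 3214, 2359 and 3839 were called lower in these fits. Nuclear list genes called higher numbered 54, but 27 without library 1 of both treatments, a setting chosen after seeing the data. There 2206 of 15156 genes tested were called higher, against 3118 of 15116 with all libraries. Total counts turned MT-RNR1 to 0.042, MT-ATP6 to 0.070, MT-CO3 to 0.063, MT-ND5 to 0.068 and MT-ND6 to 0.062. No filter turned MT-ATP6 to 0.0059 and MT-ND5 to 0.0054. Limma on log2 FPKM turned MT-ATP8 to 0.05, MT-ATP6 to 0.03, MT-CO3 to 0.0067 and MT-ND5 to 0.02, and the block turned MT-ATP6 to 0.015. Few counts limit MT-ATP8 most.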
